A study of Mus musculus with 21 samples.

Results

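The miR-7 family of mouse is a set of small regulatory RNAs read here from 3 hairpins, and its members were taken as every entry of the miRNA count tables whose name begins with miR-7a or miR-7b, whichever arm of the hairpin it comes from. The rule found 5 entries of 1909 listed for virgin females and 5 of 1841 listed for females that had been through a breeding trial, and 1388 and 743 of the listed entries had at least 1 count. The miRNAs miR-7a-5p and miR-7b-5p are the guide strands, which load into Argonaute and pair with target mRNAs through the seed. The passenger strands miR-7a-1-3p, miR-7a-2-3p and miR-7b-3p come from the opposite arm and are mostly discarded.

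miR-7 is a hallmark of endocrine and neuroendocrine cells and is abundant in the pituitary and in pancreatic islets. Mice that lack the Mir7-2 hairpin have low gonadotropins and are infertile. In brain, the long noncoding RNA Cyrano pairs extensively with miR-7 and triggers its degradation, the circular RNA Cdr1as carries many miR-7 sites, and miR-671 directs slicing of Cdr1as.

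The mature sequences are shown because a single internal base separates the guides and because the passenger strands tell apart hairpins that share a guide. They are from RefSeq (GRCm38.p6), where 5 of the 5 names matched, written 5′ to 3′ with the seed (bases 2 to 8) in capitals.
miR-7a-5p: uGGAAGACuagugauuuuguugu
miR-7b-5p: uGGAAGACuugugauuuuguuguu
miR-7a-1-3p: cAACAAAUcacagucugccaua
miR-7a-2-3p: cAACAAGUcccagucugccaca
miR-7b-3p: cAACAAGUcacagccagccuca
Counted from the 5′ end of miR-7a-5p, miR-7b-5p carries A10U and 1 extra base at its 3′ end, so both guides have the seed GGAAGAC, which no other name of the 1679 in the table has. Reads were assigned by their first 19 bases in the virgin cohort and their first 18 in the breeding trial cohort, stretches that include position 10 and that no other name of that table shares with a family member. The reference lists used for the assignment were not searched. The passenger strands differ from each other by 3 to 5 substitutions, and miR-7a-1-3p carries a seed, AACAAAU, that differs from the AACAAGU of miR-7a-2-3p and miR-7b-3p by A7G.

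Identical miR-7a-5p is cut from 2 hairpins. Mir7-1 (GENCODE, GRCm38, chr13:58392779-58392886, minus strand) lies in an intron of Hnrnpk, which encodes an abundant RNA-binding protein. Mir7-2 (chr7:78888277-78888373, plus strand) and Mir7b (chr17:56242988-56243098, plus strand), the source of miR-7b-5p, overlap no annotated gene.

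The libraries hold small RNA from whole pituitaries of female mice on a C57BL/6J background, all collected in proestrus, the stage of the estrous cycle that precedes ovulation. WT females were compared with *Zeb1 200H* females, heterozygous for a Zeb1 allele whose miR-200a/b sites are mutated, and with *Zeb1 200M* females, homozygous for it. Both edited lines, 3C5 and 6B6, supplied mice to each cohort, and the breeding trial cohort also held mice from an intercross of them. The make-up of lines therefore differed between cohorts, and the labels do not give the line of a library. Virgin females were 8 to 12 weeks old (3 WT, 4 *Zeb1 200H* and 4 *Zeb1 200M* libraries), and females of the breeding trial were 28 to 36 weeks old (4 WT, 3 *Zeb1 200H* and 3 *Zeb1 200M*). The genotypes below are written WT, 200H and 200M. Libraries carry separate replicate numbers within a genotype, and the published methods state that replicates of mouse tissue come from different mice. The study concerned the regulation of Zeb1, a transcriptional repressor, by miR-200a/b; for miR-7 the same libraries ask whether an abundant endocrine miRNA family outside that loop differs between genotypes.

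Depth differed greatly between cohorts. Virgin libraries held 3816917 to 10806313 miRNA counts, and breeding trial libraries held 60037 to 191650. Age, mating history, RNA input (3 µg by the labels of the virgin libraries, where the published methods give 2 µg, against 0.5 µg with 3 µg of yeast RNA added), the adapters given in the labels, sequencer and the reference list all changed with the cohort, so their parts in any difference between cohorts cannot be told apart. Pregnancies were also unequally spread over the genotypes of the breeding trial, where genotype and pregnancy history cannot be told apart. WT virgin replicate 1 stood apart from the other 10 virgin libraries. It had 3816917 counts where the others had at least 8502878, it had counts for 836 entries where the other WT virgin libraries had 1046 and 1045, its 3 most abundant miRNAs took 36.9% of its counts against 24.5% to 28.1%, and its TMM factor (the scaling that edgeR derives from miRNAs of middling change) was 0.616 against 0.943 to 1.12. The miR-7 guide shares and guide fold changes against virgin WT are given with and without it, and other virgin comparisons with WT include it. Intervals printed here for single libraries cover counting error alone.

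The family took a large part of the counts assigned to miRNAs, at 15.0% to 22.4% in virgin libraries (15.0% to 18.6% without WT replicate 1) and 14.6% to 19.8% in breeding trial libraries. Mean family levels, in CPM (counts scaled to a common total of miRNA counts), were 185654 ± 33417 in WT (SD, n = 3; 166364 without replicate 1), 178556 ± 7225 in 200H (n = 4) and 169196 ± 17051 in 200M (n = 4) virgin pituitaries. The breeding trial means were 180547 ± 15170 in 200H (n = 3), 174268 ± 19023 in WT (n = 4) and 157417 ± 6638 in 200M (n = 3). 200M was the lowest mean in the breeding trial, and among virgins too unless WT replicate 1 was left out, which put WT lowest; no neighbours in either order were further apart than the larger of their SDs.

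miR-7a-5p was the most abundant miRNA in 11 of 11 virgin libraries and in 7 of 10 breeding trial libraries. In the other 3 (WT replicates 2 and 3 and 200M replicate 2) miR-375-3p, another miRNA typical of endocrine cells, was ahead. Averaged over WT, miR-7a-5p ranked 1 in virgins, at 139540 ± 37868 CPM (n = 3; 117677 without replicate 1), ahead of miR-375-3p at 118915 ± 22853 (105794 without it). Among breeding trial WT miR-375-3p ranked 1, at 127759 ± 12787 CPM, and miR-7a-5p ranked 2, at 122138 ± 13730 (n = 4), a gap smaller than either SD. miR-7b-5p ranked 3 to 5 in virgin and 4 or 5 in breeding trial libraries, in the company of miR-29a-3p and miR-29b-3p. In WT means, the passenger miR-7a-2-3p ranked 121 and 75 in the virgin and breeding trial cohorts, miR-7a-1-3p ranked 321 and 232, and miR-7b-3p ranked 373 and 309.

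Genotypes differed in how the guide reads were divided between miR-7a-5p and miR-7b-5p. This share is formed within a library, so it needs no scaling between libraries. In virgin WT pituitaries, 18.1% (replicate 1), 29.0% and 28.8% of guide reads were miR-7b-5p. The share was 31.8%, 31.2%, 30.7% and 30.8% in 200H virgins and 30.9%, 31.0%, 33.5% and 32.6% in 200M virgins. Every mutant virgin library lay above every WT one, replicate 1 being far below its fellows, while 200H and 200M overlapped. Breeding trial shares were 28.1%, 29.3%, 30.3% and 29.2% in WT, 30.8%, 31.8% and 30.3% in 200H and 33.2%, 30.9% and 33.6% in 200M. There the 3 libraries of 200M lay above all of WT, 2 of the 3 of 200H did, and the lowest 200H library was level with the highest WT one to the printed digit. Counting error was widest in the shallowest library, 200H replicate 3 of the breeding trial, with a Wilson interval of 30.9% to 32.7%.

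Averaged over the cohorts, the miR-7b-5p share was 5.02 percentage points higher in 200M than in WT (two-sided exact permutation test with genotypes permuted within cohort, p = 0.00163, the smallest those arrangements can give; Benjamini-Hochberg adjusted p = 0.0122 over 15 tests of 5 ratios). For 200H against WT it was 3.78 points higher (exact p = 0.00327, adjusted p = 0.0163). Between 200M and 200H the difference was 1.24 points (exact p = 0.0629, adjusted p = 0.189), which did not pass. WT virgin replicate 1 decided much of the size: without it the differences from WT were 3.22 points for 200M and 1.98 points for 200H, and both still passed. Within the virgin cohort alone the differences from WT were 6.70 and 5.84 points, from a WT mean of 25.3% that is 28.9% without replicate 1, against means of 32.0% in 200M and 31.1% in 200H, and within the breeding trial alone 3.34 and 1.71 points. With replicate numbers as a block neither difference passed (exact permutation p = 0.0312 for each, the smallest possible; adjusted p = 0.156). No difference could pass in that setting unless most of the 15 tests stood at that smallest p, so it cannot decide. Neither cohort can pass alone, since 3 libraries against 4 give an exact p of 0.0571 at the least.

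**Figure D1:**
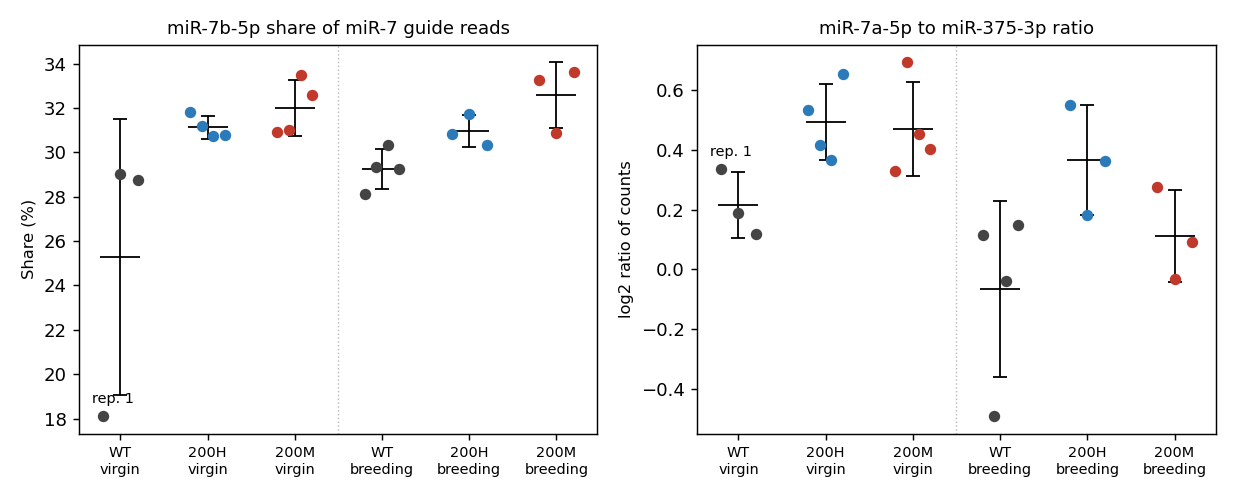
Share of miR-7 guide reads that were miR-7b-5p (left, percent) and log2 ratio of miR-7a-5p to miR-375-3p counts (right) in each library, by genotype and cohort; points are libraries, horizontal bars are means and whiskers are 1 SD, and the vertical axes do not start at 0. In the left panel the 200M libraries (30.9% to 33.6%) lie above the WT libraries of the same cohort, and WT virgin replicate 1 lies lowest at 18.1%.

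A higher share can come from more miR-7b-5p, less miR-7a-5p or both, and levels between libraries bear on that only through a scaling. In the breeding trial, miR-7a-5p was at 133151, 102100, 127644 and 125656 CPM in WT. It was at 108926, 105371 and 100847 CPM in 200M, and at 135905, 115396 and 119026 CPM in 200H. By CPM the 200M libraries lay below all of 200H and overlapped WT only through its replicate 2. After TMM scaling they no longer overlapped WT, at 92696 to 101696 against 106952 to 144467 CPM. Whether fewer cells of a type or less RNA per cell underlies such a level cannot be told apart in bulk tissue.

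Between 200M and WT of the breeding trial, miR-7a-5p fell by 0.45 on the log2 scale (SE 0.11, 95% interval −0.67 to −0.23; edgeR, Benjamini-Hochberg adjusted p = 0.00174), to 0.731 times its WT level, relative to miRNAs at large. It was the 1 of 4 tested family members to pass, in a comparison where 35.9% of all 276 tested miRNAs passed (20.3% higher and 15.6% lower). The call depends on scaling. With total counts in place of TMM, a setting chosen after seeing the data, the median of all tested miRNAs moved up by 0.23, miR-7a-5p was at −0.22 (edgeR adjusted p = 0.0684, in a range of 9.01e-06 to 0.0684 over 9 alternatives) and miR-7b-5p turned from −0.22 to 0.01; relative to the median of all, miR-7a-5p was at −0.45 either way. The 8 other settings and the removal of each of the 7 libraries in turn kept the call, at −0.53 to −0.39 over the removals.

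In 200H against WT of the breeding trial, 0 of 4 tested members passed in edgeR, where 12.0% of all 267 tested miRNAs did (4.87% higher and 7.12% lower). With total counts that balance turned, to 54 higher and 15 lower calls. There miR-7a-5p was at −0.16 with TMM (edgeR adjusted p = 0.330) and at 0.02 with total counts. With replicate numbers as a block it was at −0.24 and passed (edgeR adjusted p = 0.000519, in a range up to 0.936 over 9 alternatives), and DESeq2 and limma voom called 0 members. Between 200M and 200H, where 1.09% of 274 miRNAs passed (0.365% higher and 0.730% lower), 0 of 4 members did in edgeR, and miR-7a-5p, at −0.28 (adjusted p = 0.0741), ranked 6 of all by p. limma voom (−0.30) and the replicate block (−0.31) called it there, DESeq2 did not, and adjusted p ranged from 0.00120 to 0.627 over 9 alternatives. These comparisons share libraries and are not independent of each other.

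Among virgins, miR-7a-5p was at 183265 (replicate 1), 117851 and 117503 CPM in WT. It was at 122373, 114943, 125033 and 127082 CPM in 200H, and at 103292, 124169, 105458 and 124952 CPM in 200M. By CPM, apart from WT replicate 1, far above all others, the genotypes overlapped or lay close together, with 2 of the 4 libraries of 200M lowest. After TMM scaling the 200M libraries, at 94899 to 117094 CPM, lay below all of WT, at 119859 to 297695 (119859 to 124960 without replicate 1). The 200H libraries, at 105876 to 120698 CPM, overlapped WT on that scale. In 200M against WT the fold change was −0.79 (95% interval −1.51 to −0.07; edgeR adjusted p = 0.182), and −0.20 (adjusted p = 0.0983) without WT replicate 1. In 200H against WT it was −0.64 (edgeR adjusted p = 0.287), and −0.07 without that library. In 200M against 200H, which does not use it, miR-7a-5p was at −0.15 (edgeR adjusted p = 0.515). Of the 5 members tested, 0 passed in each virgin comparison, where in edgeR 6.49% of 678 (2.65% higher, 3.83% lower), 5.06% of 672 (1.64% higher, 3.42% lower) and 2.22% of 675 (0.741% higher, 1.48% lower) tested miRNAs passed; DESeq2 and limma voom also called 0 members. Without WT replicate 1 the counts over all miRNAs went from 44 to 168 in 200M against WT and from 34 to 151 in 200H against WT.

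miR-7b-5p, the guide from the Mir7b hairpin, was at 40528 (replicate 1), 48175 and 47454 CPM in virgin WT. It was at 57160, 52143, 55450 and 56478 CPM in 200H virgins, and at 46265, 55747, 53046 and 60411 CPM in 200M virgins. By CPM the 200H libraries all exceeded WT and 200M overlapped it. After TMM scaling the edgeR fold changes were −0.07 in 200H (adjusted p = 0.825; 0.29 with total counts) and −0.16 in 200M (adjusted p = 0.596; 0.25 with total counts), so the direction turned with the scaling, under which the medians of all miRNAs moved up by 0.29 and 0.34. It also turned under TMM scaling without WT replicate 1, to 0.0815 in 200H and 0.0118 in 200M. With that library included, miR-7b-5p stayed negative relative to the median of all miRNAs under both scalings. It was at −0.077 (TMM) and −0.007 (total counts) in 200H, and at −0.158 and −0.092 in 200M.

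Older WT females had miR-7b-5p at 52049, 42383, 55546 and 51892 CPM in the breeding trial. It was at 60553, 53684 and 51773 CPM in 200H, and at 54252, 47105 and 51055 CPM in 200M. The 3 genotypes overlapped. Against WT, miR-7b-5p was at −0.22 in 200M (edgeR adjusted p = 0.0940; 0.00342 without WT replicate 2, which was lowest at 42383 CPM) and at −0.04 in 200H (adjusted p = 0.845).

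**Figure D2:**
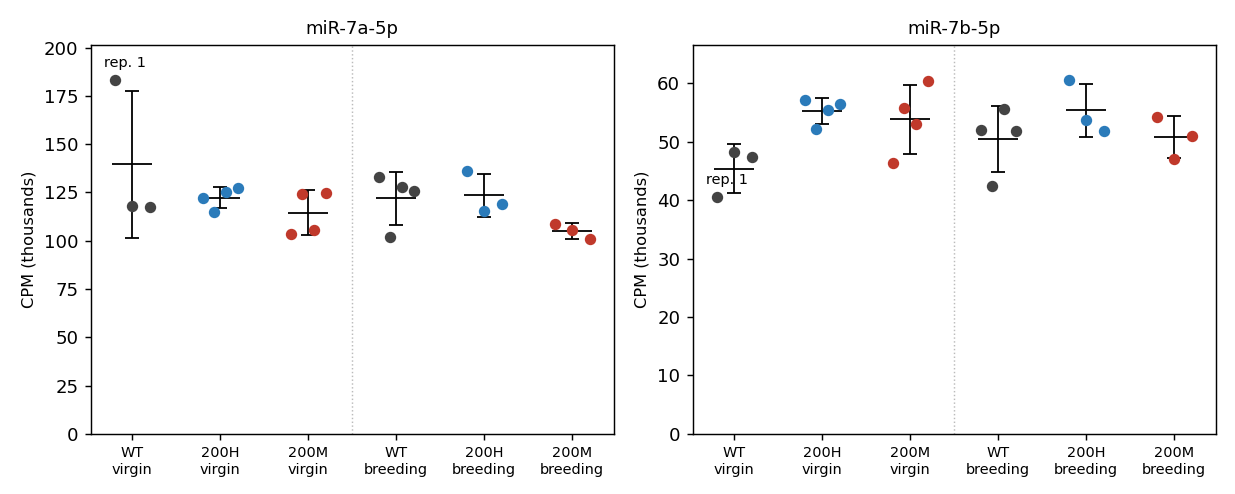
Levels in CPM (counts scaled to a common total, axis in kilo-CPM) of miR-7a-5p (left) and miR-7b-5p (right) in each library, by genotype and cohort; points are libraries, horizontal bars are means and whiskers are 1 SD. WT virgin replicate 1 is highest for miR-7a-5p (183265 CPM) and lowest for miR-7b-5p (40528 CPM), and the breeding trial 200M libraries are low for miR-7a-5p (100847 to 108926 CPM), a difference that passed the test with TMM scaling but not with total counts.

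The passenger strands were far scarcer. miR-7a-2-3p, from the intergenic hairpin, averaged 662 ± 218 CPM in WT (n = 3; 786 without replicate 1), 808 ± 37.0 in 200H and 778 ± 61.7 in 200M virgins (n = 4 each). Its breeding trial averages were 1491 ± 139 in WT (n = 4), 1601 ± 146 in 200H and 1421 ± 302 in 200M (n = 3 each). The breeding trial means were higher in each genotype, a gap between cohorts that the library preparations share. miR-7a-1-3p, from the Hnrnpk intron, averaged 44.0 to 54.8 CPM over the virgin groups. In the breeding trial, where a library held 8 to 19 of its reads over all genotypes, it averaged 132 CPM in WT and 115 CPM in 200M, and was at 60.9 to 133 CPM in 200H, whose mean was lowest. miR-7b-3p averaged 23.0 to 30.7 and 29.1 to 71.3 CPM, with 2 to 10 reads in a breeding trial library, and did not pass the filter on low counts in that cohort.

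The passengers gave 0 calls in the 6 edgeR comparisons, where 1.09% to 35.9% of all tested miRNAs passed. Their 1 fold change near the threshold was that of miR-7a-2-3p in 200M against WT of the breeding trial (−0.31, edgeR adjusted p = 0.0913). Without 200M replicate 1 it was −0.48 (edgeR adjusted p = 0.0151). limma voom called miR-7a-2-3p and miR-7b-5p in that comparison besides miR-7a-5p, where it called 107 of all 276 tested miRNAs. The largest passenger fold change was −0.70, that of miR-7a-1-3p in 200H against WT of the breeding trial (edgeR adjusted p = 0.188), which rests on single and low double digits of reads.

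**Figure D3:**
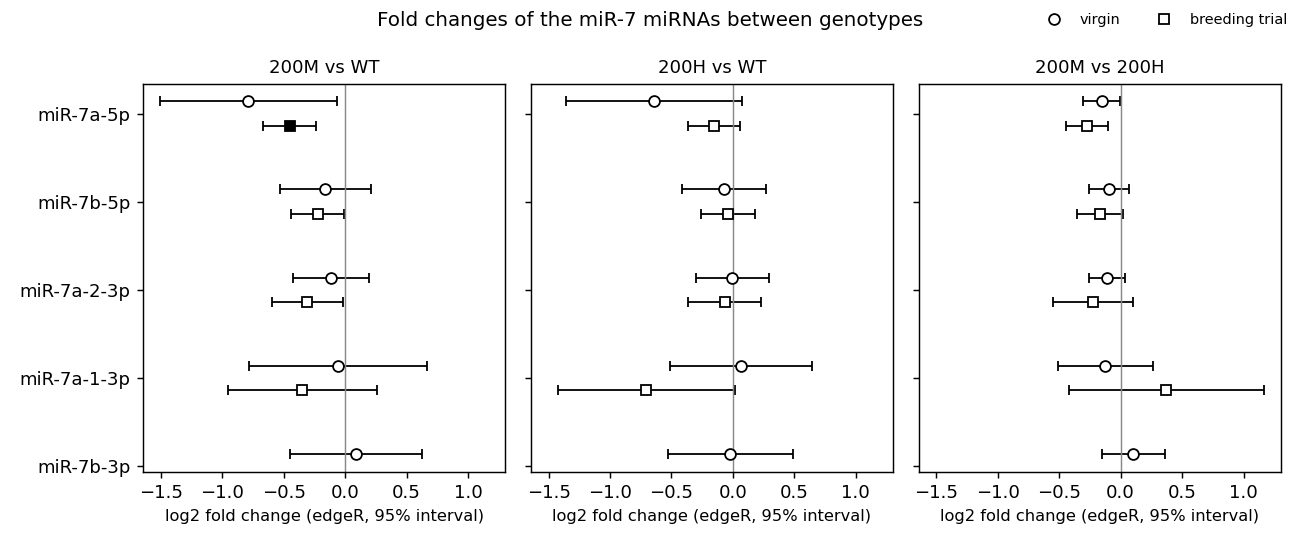
Log2 fold changes of the miR-7 miRNAs between genotypes (edgeR with TMM scaling; horizontal axis), with 95% intervals, in the virgin (circles) and breeding trial (squares) cohorts; a filled symbol has a Benjamini-Hochberg adjusted p below 0.05. The filled symbol is miR-7a-5p in 200M against WT of the breeding trial (−0.45), which lost its call with total-count scaling, where miR-7b-5p turned positive. Relative to the median of all tested miRNAs, miR-7a-5p was at −0.453 with TMM and −0.451 with total counts. On that footing miR-7b-5p was at −0.226 and −0.224.

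Since miR-7a-5p is the same from either hairpin, the passenger reads are what tells the hairpins apart. miR-7a-2-3p made up 92.3% to 96.4% of miR-7a passenger reads in the virgin and 200H breeding trial libraries, and 90.3% to 94.5% in WT and 200M of the breeding trial. The genotypes overlapped in each cohort, though 2 of the 3 libraries of 200H in the breeding trial exceeded all of WT. None of the 3 genotype differences passed (exact permutation tests, differences of 0.00, 1.03 and −1.03 points, adjusted p = 1.00, 0.358 and 0.413 for 200M against WT, 200H against WT and 200M against 200H). These averages join cohorts of opposite direction, at −0.361 and 0.359 points in virgins and the breeding trial for 200M against WT. They were −0.454 and 2.51 for 200H against WT, and 0.0931 and −2.15 for 200M against 200H. Leaving out 1 library moved the average to 0.525 to 1.49 points for 200H against WT. For 200M against 200H it moved to −1.59 to −0.526. The smallest differences were those without 200H breeding trial replicate 4.

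Guide reads outnumbered passenger reads of the same hairpins by a wide margin. For miR-7a the log2 ratio of guide to passenger counts was 8.73, 7.20 and 7.05 in WT virgins, where replicate 1 was highest, and 6.93 to 7.40 in the mutant virgins. Breeding trial libraries were at 5.94 to 6.49 in WT, 5.96 to 6.48 in 200H and 5.86 to 6.25 in 200M. For miR-7b the ratio was higher, at 10.5 to 11.9 in virgin and 9.33 to 11.6 in breeding trial libraries, the latter over 2 to 10 passenger reads. The arm ratios of both guides overlapped between genotypes, and 0 of the 6 exact permutation tests passed (unadjusted p at least 0.131; 0 were below 0.05).

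miR-375-3p, a miRNA of hormone-secreting cells, served as a reference for miR-7a-5p that does not rest on total counts. In virgin WT the log2 ratio of miR-7a-5p to miR-375-3p was 0.34 (replicate 1), 0.19 and 0.12. It was 0.53, 0.42, 0.37 and 0.65 in 200H virgins, and 0.33, 0.69, 0.45 and 0.40 in 200M virgins. All 200H libraries and 3 of the 4 of 200M lay above WT. The breeding trial ratios were 0.11, −0.49, −0.04 and 0.15 in WT, 0.55, 0.18 and 0.36 in 200H, and 0.28, −0.03 and 0.09 in 200M, so that 200H again lay wholly above WT while 200M overlapped it. Averaged over the cohorts, 200H exceeded WT by 0.35 (exact permutation p = 0.00163, the smallest possible, adjusted p = 0.0122). With replicate numbers as a block this difference was 0.31 and did not pass (exact permutation p = 0.0312, the smallest possible; adjusted p = 0.156). As for the miR-7b-5p share, that setting cannot decide, since its smallest p hardly survives adjustment. 200M exceeded WT by 0.22 (exact p = 0.0457, adjusted p = 0.171) and did not pass. Beside these ratios, miR-375-3p itself fell by 0.59 in 200H and by 0.62 in 200M against WT of the breeding trial (edgeR adjusted p = 5.34e-05 and 3.17e-05), and was at −0.88 and −1.01 among virgins (neither passed).

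Whether the genotype effects on miR-7 differed between cohorts was tested directly, as the fold change in the breeding trial minus that in virgins. For miR-7a-5p this difference was 0.34 for 200M against WT, 0.47 for 200H against WT and −0.13 for 200M against 200H (edgeR adjusted p = 0.790, 0.629 and 1.00). Without WT virgin replicate 1 the first was −0.19 and the second −0.05. The largest value in the family was that of miR-7b-3p for 200M against 200H, −1.38 (edgeR unadjusted p = 0.0127, adjusted p = 0.974). miR-7b-3p was at −0.69 for 200M against WT and 0.70 for 200H against WT (edgeR adjusted p = 0.837 and 0.644). It held 2 to 6 reads in 200M and 5 to 10 in 200H libraries of the breeding trial. Over all 566 miRNAs tested, 0 passed in each of the 3 tests in edgeR (0%), with 44, 49 and 16 at an unadjusted p below 0.05; limma voom called 1, 1 and 0, the call being miR-429-5p both times, which was named after its values were seen. The fall of miR-7a-5p in 200M of the breeding trial is therefore not shown to differ from its change in virgins.

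Markers of other cell types moved with genotype, and their values stand beside the miR-7 results. The brain list (9 names, 9 matched, miR-124-3p most abundant) summed to 2164, 4927 and 5498 CPM in WT virgins. It summed to 8423 to 9163 CPM in 200H and 8980 to 12546 CPM in 200M virgins. Breeding trial sums were 6291 to 7587 CPM in WT, 10727 to 12909 in 200H and 17148 to 17224 in 200M. miR-124-3p (both of its virgin entries) rose in all 6 comparisons, and in 200M against WT of the breeding trial miR-9-5p, miR-137-3p and miR-338-3p rose with it (4 of 7 tested, median 0.44, against 20.3% called higher and a median of 0.00 over all 276 miRNAs; edgeR). Among virgins the 2 entries of miR-124-3p, which are 1 miRNA, were the only calls of 9 tested in each comparison (edgeR; 2.65%, 1.64% and 0.741% of all tested miRNAs were called higher in 200M against WT, 200H against WT and 200M against 200H), and miR-219a-5p was at −0.76 in 200M and −0.53 in 200H against WT and −0.24 between them, none of which passed. miR-219a-2-3p was at 0 in 7 of 10 breeding trial libraries, WT included, and no brain entry was at 0 in a virgin library. The part of these miRNAs in the miR-7 shares and levels was not tested.

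Blood and vessel entries also moved. In 200M against WT of the breeding trial 3 of 6 tested blood entries rose (median 0.52) and 4 of 6 tested vessel and connective tissue entries did (median 0.36), beside 20.3% higher and a median of 0.00 over all 276 miRNAs tested (edgeR). Blood entries (7 of 12 names matched, miR-451a most abundant) summed to 6350 to 9312 CPM in WT and 8898 to 12735 CPM in 200M there, and vessel entries (6 of 11 names matched, miR-126a-3p most abundant) to 10243 to 10699 and 14730 to 16244 CPM, with no entry of either list at 0. In the other 5 comparisons blood entries gave 0 calls, and vessel entries gave 1, miR-145a-5p up in 200M against WT of the virgins, beside 6.49%, 5.06% and 2.22% of all tested miRNAs called in the virgin comparisons and 12.0% and 1.09% in the others (edgeR). By CPM the vessel sum of the breeding trial 200H libraries, 12942 to 14369, also lay above WT. Among virgins that sum was 8123 to 8944 CPM in WT, 9362 to 11275 in 200H and 9649 to 12604 in 200M, both above WT. Such sums carry the shift of total-count scaling against TMM, where the medians of all miRNAs moved up against WT. That shift was 0.34 (200M) and 0.29 (200H) among virgins, and 0.23 and 0.17 in the breeding trial. With TMM scaling the median vessel fold change among virgins was 0.27 in 200M and 0.19 in 200H against WT. Skeletal muscle entries summed to at most 104 CPM and liver entries were scarcer still. The part of blood and vessel in the fall of miR-7a-5p and in the miR-7b-5p share was not tested.

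The endocrine list, which holds miR-375-3p and the 5 miRNAs of the miR-200 and miR-141 families that the edited Zeb1 sites answer to, fell against WT in 5 of 6 entries in each virgin comparison and in 6 of 6 in each breeding trial comparison (edgeR). Over all miRNAs tested, 3.83% (200M) and 3.42% (200H) were called lower against WT among virgins, and 15.6% and 7.12% in the breeding trial. The sum of the list was 178891 ± 30442 CPM in WT virgins and 89537 ± 8550 in 200M virgins. In the breeding trial it was 190779 ± 11968 and 105107 ± 9755 CPM, with miR-375-3p most abundant and no entry at 0. Of the virgin sums, miR-375-3p took 103399 to 145158 CPM in WT and 76828 to 94542 CPM in 200M. The part of these falls in the CPM levels of miR-7 was not tested.

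Other miRNAs tied to miR-7 or to the same kind of turnover were tested too. miR-671-5p and miR-671-3p, of the Cdr1as circuit, gave 0 calls of 2 tested among virgins and 0 of 1 in the breeding trial in edgeR. Over all tested miRNAs, 6.49% (200M against WT), 5.06% (200H against WT) and 2.22% (200M against 200H) passed among virgins. In the breeding trial these shares were 35.9%, 12.0% and 1.09%. miR-671-5p was at −0.45 to 0.11 over the 6 comparisons. Of 5 other miRNAs with a known degradation trigger, tested in full among virgins and 2 of them in the breeding trial, miR-29b-3p, the target of a site in Nrep (libra), rose by 0.33 in 200M against WT of the breeding trial (edgeR adjusted p = 0.0245, where 35.9% of all tested miRNAs passed), and the rest gave 0 calls. Among virgins miR-29b-3p was at 0.54 in 200M and 0.57 in 200H against WT (edgeR adjusted p = 0.0973 and 0.0677), and miR-503-5p was at 1.08 in 200M against WT (edgeR adjusted p = 0.142), none of which passed.

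Patterns over libraries were compared for the 263 miRNAs outside the family that passed the filter and had counts in every library of both cohorts. Those most like miR-7a-5p were miR-335-5p, miR-151-5p, miR-200c-3p, miR-376c-3p and miR-141-3p. The ranking used the lower of the Pearson correlations of log2 TMM-scaled CPM within each cohort (11 and 10 libraries). For miR-335-5p the correlation was 0.917 in virgins and 0.847 in the breeding trial (Spearman 0.791 and 0.842), and the Spearman correlations were 0.473 and 0.818 for miR-151-5p, 0.955 and 0.830 for miR-200c-3p, 0.627 and 0.794 for miR-376c-3p, and 0.909 and 0.891 for miR-141-3p. The other guide, miR-7b-5p, outside the ranking as a family member, was at 0.841 and 0.879. By CPM, WT virgin replicate 1 was the highest virgin library for miR-7a-5p (183265) and the lowest for miR-7b-5p (40528). After TMM scaling it was highest for both (297695 and 65832 CPM), so the virgin value leans on that scaling. No p is given, since the 5 were picked as the highest. The virgin Pearson correlations were lower without WT replicate 1. miR-335-5p was then at 0.531, miR-151-5p at 0.359, miR-200c-3p at 0.681, miR-376c-3p at 0.408, miR-141-3p at 0.675 and miR-7b-5p at 0.721. With it left out, miR-335-5p, miR-151-5p and miR-376c-3p dropped to ranks 19, 44 and 37 while miR-200c-3p and miR-141-3p took ranks 1 and 2. After genotype means were subtracted, the lower correlation was 0.677 for miR-335-5p, 0.322 to 0.521 for the 4 others and 0.861 for miR-7b-5p. Of these, miR-200c-3p and miR-141-3p fell in all 6 comparisons in edgeR. miR-335-5p fell by 0.70 in 200M and by 0.48 in 200H against WT of the breeding trial (edgeR adjusted p = 7.88e-06 and 0.00279). In 200M against WT, miR-151-5p was at −0.84 in virgins and −0.58 in the breeding trial (edgeR adjusted p = 0.0386 and 0.00174). There miR-376c-3p was at −0.46 in the breeding trial (edgeR adjusted p = 0.00869). miR-335-5p, miR-151-5p and miR-376c-3p did not pass in their other comparisons.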

How the data were processed

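The deposited tables hold raw read counts per miRNA, which the authors made by trimming with cutadapt and matching the first 19 (virgin) or 18 (breeding trial) bases to a miRNA list; the DESeq2 columns beside them (the authors' means, fold changes and p values) were not used. Names beginning miR-7a or miR-7b were taken. The members and lists were chosen with earlier results of these data known. miRNAs named are family members, members of the lists, the most abundant, the 5 most alike in pattern, or called in a test of the difference between cohorts. Each pair of genotypes was fitted within a cohort with edgeR 4.0.16 in R 4.3.3 (filterByExpr with a minimum count of 10 and a total of 15, TMM, quasi-likelihood F test), with p values adjusted by Benjamini-Hochberg over all miRNAs tested at a threshold of 0.05. The difference between cohorts was an interaction term over all 21 libraries. Ratios and shares within a library were compared by exact permutation over libraries. Single-library intervals are 95% Wilson intervals. Alternatives were DESeq2 1.42.0, its size factors, limma 3.58.1 voom with quality weights, a robust fit, TMM factors from miRNAs outside miR-7 and miR-200, no filter, all genotypes in 1 fit, a replicate block, each cohort alone or medians in place of means for ratios, and each library left out; total counts in place of TMM, levels without WT virgin replicate 1, and correlations without the 2 libraries farthest from the median were added after seeing the data. Other computing used Python 3.11.15 with numpy 2.4.6, pandas 2.3.3, scipy 1.17.1 and matplotlib 3.10.9.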

Additional observations from a re-analysis of the deposited data

How the results depend on the processing

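Over other settings (9 for fold changes within a cohort, 4 for ratios and 2 for differences between cohorts) and each library left out, most fold changes and ratios kept their direction and call; fold changes, ratios and counts of miRNAs that changed follow, as log2 values, counts or percentage points. Of levels compared under TMM scaling or over reads outside the family 37 of 72 moved, and of likeness values 7 of 10 did under other settings, among them miR-335-5p at 0.465 without the 2 libraries farthest from the median. DESeq2 called 87 and 66 miRNAs in virgin 200M and 200H against WT, a single fit of the genotypes 90 and 67 (and 5 in virgin 200M against 200H), and limma voom 184 and 152. With voom breeding trial 200M against 200H gave 5 calls, and the differences between cohorts 1 and 1 against WT for 200M and 200H. voom also gave miR-7b-3p −0.11 in virgin 200M against WT, and in virgin 200H against WT miR-7a-1-3p −0.22 and miR-7b-5p 0.0857. Its calls in breeding trial 200M were miR-7a-2-3p −0.36 and miR-7b-5p −0.24 against WT, and miR-7a-5p −0.30 against 200H. Between cohorts voom put miR-7a-5p at −0.16 for 200M, and miR-7a-2-3p at 0.00929, miR-7a-5p at −0.0546 and miR-7b-5p at −0.0956 for 200H against WT. Replicate numbers as a block, a pairing the labels do not state and for which libraries of the same number correlated at −0.248 to 0.188, gave 20 and 18 calls in virgin 200M and 200H against WT and 5 in breeding trial 200M against 200H. The block put miR-7a-5p at −0.24 in breeding trial 200H against WT and −0.31 in 200M against 200H, where miR-7a-1-3p was at −0.13. Under the block the miR-7b-5p share differed from WT by 4.77 (200M) and 3.86 points (200H), the miR-7a-2-3p share by 0.223 points (200M) and the miR-7a-5p to miR-375-3p ratio by 0.31 (200H), and 0 of them passed. No ratio could pass under the block unless most of the 15 tests stood at its smallest p. Total counts gave 69 calls in breeding trial 200H against WT, 54 higher and 15 lower, against 13 and 19 with TMM. They gave 84 higher and 26 lower in breeding trial 200M against WT, against 56 and 43 with TMM. Virgin 200M against WT had 39 higher and 19 lower (18 and 26 with TMM). Virgin 200H against WT had 21 higher and 21 lower (11 and 23 with TMM). In virgin 200M against WT total counts put miR-7a-1-3p at 0.24, miR-7a-2-3p at 0.23 and miR-7b-5p at 0.25. In virgin 200H against WT they put miR-7a-2-3p at 0.29, miR-7b-3p at 0.23 and miR-7b-5p at 0.29. For breeding trial 200M against WT they gave miR-7a-5p −0.22 and miR-7b-5p 0.0117, and for 200H against WT miR-7a-2-3p 0.11, miR-7a-5p 0.0174 and miR-7b-5p 0.13. No filter gave miR-7a-2-3p 0.0380 and miR-7b-3p 0.00873 in virgin 200H against WT. Virgins alone gave miR-7b-5p share differences from WT of 6.70 (200M) and 5.84 points (200H), and miR-7b arm ratio differences of −0.31 (200M against WT) and −0.20 (200M against 200H). They gave miR-7a-2-3p share differences of −0.454 (200H against WT) and 0.0931 points (200M against 200H), and 0.28 for the miR-7a-5p to miR-375-3p ratio in 200H against WT. The breeding trial alone gave 3.34 and 1.71 points for the miR-7b-5p share, 0.359 points for the miR-7a-2-3p share (200M against WT) and 0.43 for the miR-375-3p ratio (200H against WT). Leaving out 1 library gave 25 to 168 calls in virgin 200M against WT and 21 to 151 in virgin 200H against WT, the highest without WT replicate 1, and 3 to 5 in breeding trial 200M against 200H. It gave 0 to 1 in the difference between cohorts for 200M against WT (1 without WT breeding trial replicate 1). In virgin 200M against WT it gave miR-7a-1-3p −0.29 to 0.12, miR-7b-3p −0.0930 to 0.29 and miR-7b-5p −0.24 to 0.0118, and in virgin 200M against 200H miR-7a-1-3p −0.23 to 0.0619. In virgin 200H against WT it gave miR-7a-1-3p −0.19 to 0.24, miR-7a-2-3p −0.0870 to 0.0783, miR-7b-3p −0.22 to 0.17 and miR-7b-5p −0.15 to 0.0815. In breeding trial 200M against WT it gave miR-7a-2-3p −0.48 to −0.18 and miR-7b-5p −0.30 to −0.18, and in 200H against WT miR-7a-2-3p −0.12 to 0.0156 and miR-7b-5p −0.12 to 0.0189. Between cohorts it gave miR-7a-5p −0.19 to 0.46 (200M against WT), miR-7a-2-3p −0.21 to 0.0534, miR-7a-5p −0.0545 to 0.63 and miR-7b-5p −0.0903 to 0.0869 (200H against WT) and miR-7b-5p −0.16 to 0.0145 (200M against 200H). For ratios it gave the miR-7a arm ratio −0.11 to 0.0145 (200M against 200H), the miR-7b arm ratio −0.0229 to 0.40 and the miR-7a-2-3p share −0.560 to 0.496 points (both 200M against WT).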
